A study of Mus musculus with 15 samples.

Results

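Calcineurin and its regulators were followed in femoral tissue of mice kept on the ground or in spaceflight, with and without a segmental bone defect. The 9 genes were Ppp3r1, Ppp3ca, Ppp3cb, Ppp3cc, Rcan1, Rcan2, Nfatc2, Nfatc3 and Nfatc4, and their members on the array were the probes whose transcript accession maps to these symbols. They had 11 probes of 55681 on the array, where 21154 genes have a symbol, with 1 spot each, and every probe is shown. RNA of 15 mice was hybridised, 4 unoperated mice on the ground (G-Sham), 4 unoperated mice in flight (FLT-Sham), 4 mice with segmental bone defect surgery on the ground (G-Surgery) and 3 with that surgery in flight (FLT-Surgery). All were male C57BL/6J mice labelled as 9-week old, which by the study's methods is the age at surgery, and the flight groups then lived for several weeks on the International Space Station. In the operated mice a synthetic graft filled the defect in the right femur, held by a needle along the marrow canal and wrapped in a collagen sponge soaked in saline, and no bone-forming agent was given. The ground groups were kept in the same hardware a few days after the flight groups, so the timing and the housing run differ along with spaceflight and cannot be told apart from it. Each array held the RNA of 1 mouse in Cy5 against a commercial pool of mouse cell line RNA in Cy3, and each value below is a log2 ratio of Cy5 over Cy3 unless said otherwise. The carcasses were frozen whole and partly thawed for dissection, and by the study's own measurement the RNA was of low integrity.

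Calcineurin is the calcium- and calmodulin-dependent serine/threonine phosphatase. Its catalytic A subunit comes from Ppp3ca, Ppp3cb or Ppp3cc, and its calcium-binding regulatory B subunit from Ppp3r1 in most tissues. Once calcium and calmodulin activate it, calcineurin removes phosphates from the NFAT transcription factors, of which Nfatc2, Nfatc3 and Nfatc4 are members here, and these enter the nucleus. Rcan1 and Rcan2 encode proteins that bind and restrain the enzyme, and an internal start of Rcan1 is a classic NFAT target. In bone the pathway is best known from osteoclast and osteoblast differentiation, and in skeletal muscle from fibre type and growth.

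RefSeq windows of 300 bases around the start of a gene, mostly upstream of it (build GRCm38.p6), were matched for 7 of the 9 genes, which had 12 starts. Neither Ppp3ca nor Ppp3cc was among them. The windows of Ppp3r1 and Ppp3cb are shown because these genes passed the cut-off in a comparison below, and both Rcan1 starts are shown because one of them is the known NFAT target. Capitals mark the core of the NFAT site, searched as GGAAA and, for the other strand, TTTCC. The 4 windows are chr11:17159048-17159347 on the plus strand for Ppp3r1, chr14:20546524-20546823 on the minus strand for Ppp3cb, and chr16:92466120-92466419 and chr16:92400029-92400328, both on the minus strand, for starts 1 and 2 of Rcan1.
Ppp3r1: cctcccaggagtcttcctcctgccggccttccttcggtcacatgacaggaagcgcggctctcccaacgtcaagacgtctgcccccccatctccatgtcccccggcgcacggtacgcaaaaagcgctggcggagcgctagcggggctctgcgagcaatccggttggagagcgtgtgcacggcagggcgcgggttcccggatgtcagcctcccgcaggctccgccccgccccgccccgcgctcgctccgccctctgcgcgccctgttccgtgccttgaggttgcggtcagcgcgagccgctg
Ppp3cb: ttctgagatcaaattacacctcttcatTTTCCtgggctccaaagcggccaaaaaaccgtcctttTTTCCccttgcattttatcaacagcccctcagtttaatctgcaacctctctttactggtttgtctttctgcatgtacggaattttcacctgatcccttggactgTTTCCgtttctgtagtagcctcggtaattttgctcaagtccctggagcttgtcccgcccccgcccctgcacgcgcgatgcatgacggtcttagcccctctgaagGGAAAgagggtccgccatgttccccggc
Rcan1 start 1: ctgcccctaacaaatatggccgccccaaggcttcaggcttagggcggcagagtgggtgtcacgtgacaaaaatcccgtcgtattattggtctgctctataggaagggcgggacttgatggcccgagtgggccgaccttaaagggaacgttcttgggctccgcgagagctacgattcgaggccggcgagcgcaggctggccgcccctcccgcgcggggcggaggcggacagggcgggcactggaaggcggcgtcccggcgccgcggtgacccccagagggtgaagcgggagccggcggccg
Rcan1 start 2: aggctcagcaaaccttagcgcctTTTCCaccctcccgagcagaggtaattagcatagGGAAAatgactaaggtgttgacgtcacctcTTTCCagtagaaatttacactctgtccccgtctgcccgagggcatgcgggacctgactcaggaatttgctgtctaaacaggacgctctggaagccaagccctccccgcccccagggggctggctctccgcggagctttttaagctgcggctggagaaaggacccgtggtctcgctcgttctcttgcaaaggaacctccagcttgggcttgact
The Ppp3r1 window and start 1 of Rcan1 held 0 matches, start 2 of Rcan1 held 3 and the Ppp3cb window held 4. The windows of Nfatc4 and of start 1 of Nfatc2 held 3, and those of the other starts of Rcan2, Nfatc2 and Nfatc3 between 0 and 2. At least 1 was found in 61.3% of the 32851 windows of that length, at least 3 in 9.42% and at least 4 in 2.65%. A match describes letters and no more. Which Rcan1 start the probe's transcript uses was not determined.

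Members differed most in whether they were measured at all. Nfatc4 and Ppp3ca were well above background in Cy5 on 15 of 15 arrays. Ppp3r1, Ppp3cb and the brighter Nfatc2 probe were on 12 arrays, and Rcan2 was on 10. Rcan1 was on 4 arrays, Ppp3cc on 3 and the brighter Nfatc3 probe on 2, while the second Nfatc3 probe was on 0. For Ppp3r1, Ppp3cb and Nfatc2 the split followed the groups, with 3 of 4 G-Sham, 4 of 4 FLT-Sham, 4 of 4 G-Surgery and 1 of 3 FLT-Surgery arrays above background. The raw Cy5 signals were small. After background subtraction that of Ppp3r1 was between 2.46 and 209 scanner units, and the dye normalization multiplied Cy5 by a linear factor of 19.8 to 59.5 depending on the array. This factor was highest in FLT-Surgery mice 3 and 5, at 59.5 and 50.9. It was 27.5 in FLT-Surgery mouse 1 and 24.8 to 48.0 in G-Surgery.

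Some arrays stood apart inside their group. Of the 55681 probes, between 12895 and 18317 were above background in Cy5 on G-Sham arrays, 14841 to 21488 on FLT-Sham, 14333 to 20734 on G-Surgery and 12510 to 14284 on FLT-Surgery arrays. Among 14 skeletal muscle markers, 11 to 14 were above background on every array, and their summed Cy5 signal, as a percent of that on the array where it was highest, was 7.07% to 34.2% in G-Sham, 10.9% to the highest itself in FLT-Sham, 5.43% to 24.98% in G-Surgery and 1.98% to 19.4% in FLT-Surgery. The lowest muscle signal of each group came from G-Sham mouse 1, FLT-Sham mouse 8, G-Surgery mouse 1 and FLT-Surgery mouse 3. The label calls the tissue callus on the sham arrays too, where it is the matching stretch of femoral shaft, and 3 to 7 of 11 osteoblast and osteocyte markers and 1 to 4 of 7 cartilage markers were above background. In such bulk samples, fewer cells of a type and less RNA per cell cannot be told apart.

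Ppp3r1, the regulatory B subunit (probe A_55_P1990755), was the member that spaceflight separated most clearly, and it did so in the operated mice. In FLT-Surgery its log2 ratio was -0.82, -3.42 and -2.84 in mice 1, 3 and 5. In G-Surgery it was -0.41, 0.59, 0.28 and 0.08 in mice 1, 3, 4 and 5. The 3 flight values lay below all 4 ground values, and mouse 1 of FLT-Surgery was much nearer to the ground mice than the other two. In the unoperated mice it was -1.84, -0.07, 0.58 and 0.60 in G-Sham mice 1, 3, 4 and 5, and 1.12, 1.27, -0.38 and 0.40 in FLT-Sham mice 4, 6, 8 and 9, so that the flight and ground shams overlapped. Ordered by mean ± SD, Ppp3r1 was 0.60 ± 0.76 in FLT-Sham (n = 4), 0.14 ± 0.42 in G-Surgery (n = 4), -0.18 ± 1.15 in G-Sham (n = 4) and -2.36 ± 1.37 in FLT-Surgery (n = 3), and every group overlapped the next.

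**Figure D1:**
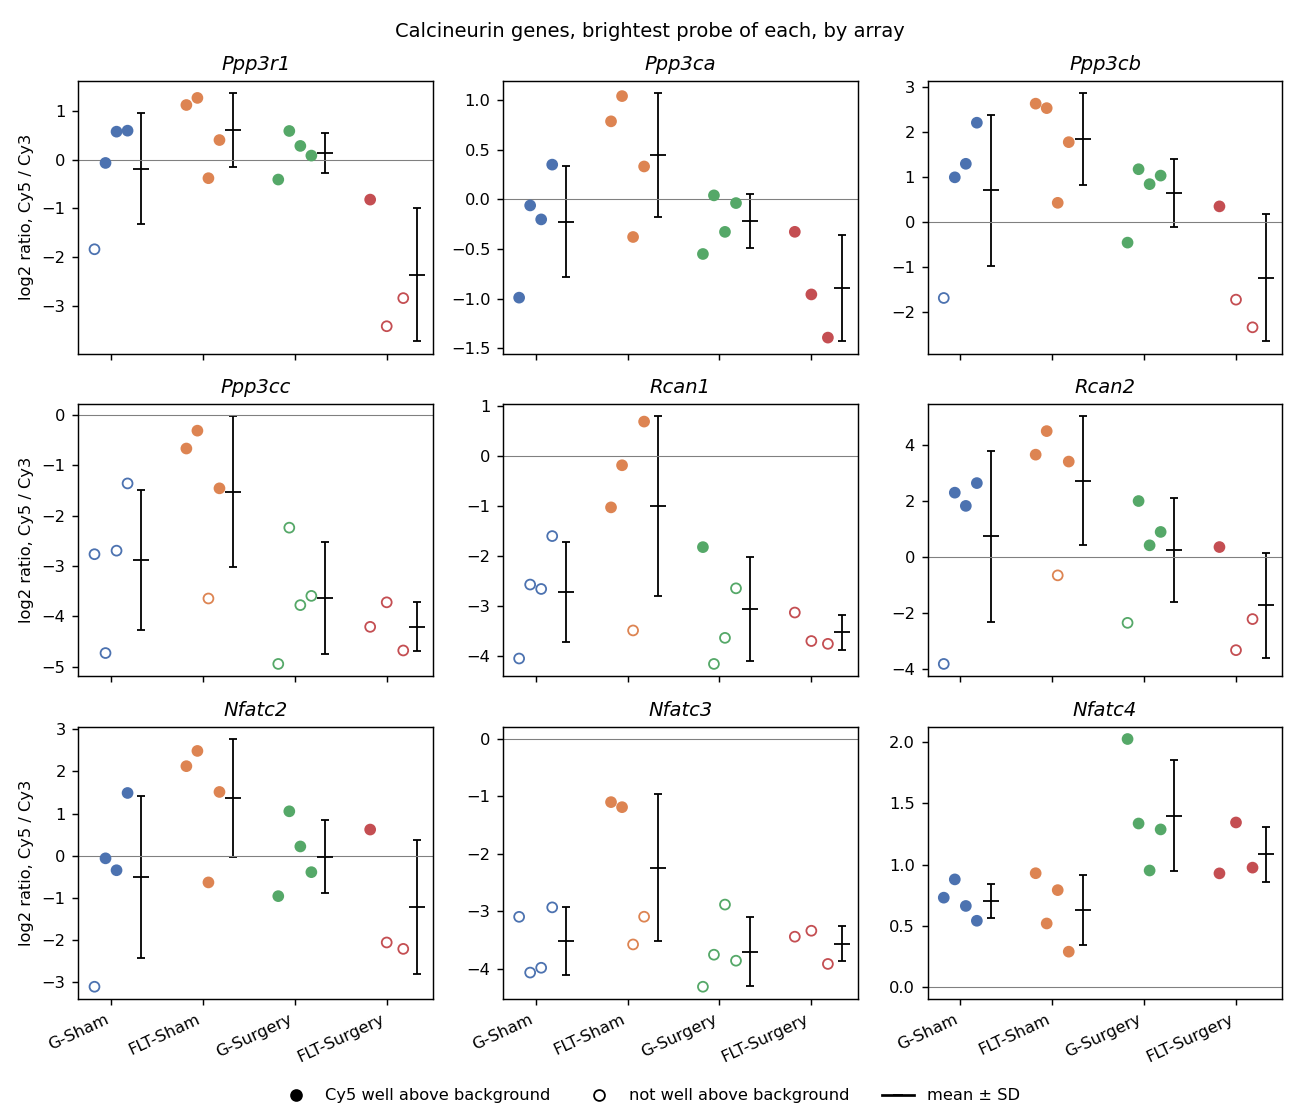
Log2 ratio of Cy5 over Cy3 (vertical axis) of the brightest probe of each of the 9 genes on each of the 15 arrays, by group, with the mean and SD beside the points. Open points were not well above background in Cy5. The FLT-Surgery points of Ppp3r1 lie below all G-Surgery points, while those of Nfatc4, from 0.93 to 1.34, overlap them.

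Of the catalytic subunits, Ppp3cb (A_52_P306396) followed Ppp3r1 from array to array. Its log2 ratio was -1.69, 0.99, 1.29 and 2.21 in G-Sham mice 1, 3, 4 and 5, and 2.63, 2.53, 0.43 and 1.77 in FLT-Sham mice 4, 6, 8 and 9. In the operated mice it was -0.46, 1.17, 0.84 and 1.03 in G-Surgery mice 1, 3, 4 and 5, and 0.35, -1.72 and -2.34 in FLT-Surgery mice 1, 3 and 5. The 2 low flight values stood below every ground value, and FLT-Surgery mouse 1 fell inside the ground range. The order of means was FLT-Sham at 1.84 ± 1.02, G-Sham at 0.70 ± 1.67, G-Surgery at 0.65 ± 0.75 and FLT-Surgery at -1.24 ± 1.41 (SD, n = 4, 4, 4 and 3), with every group overlapping the next.

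Ppp3ca (A_55_P1952738), the other widely expressed catalytic subunit, moved over a narrower range. It was -0.99, -0.06, -0.20 and 0.35 in G-Sham mice 1, 3, 4 and 5 and 0.79, 1.04, -0.38 and 0.33 in FLT-Sham mice 4, 6, 8 and 9. Operated mice had -0.55, 0.04, -0.33 and -0.04 in G-Surgery and -0.33, -0.96 and -1.39 in FLT-Surgery, in the same order of mice as above. Again FLT-Surgery mouse 1 lay among the ground mice and the other two below them. The means were 0.44 ± 0.62 in FLT-Sham, -0.22 ± 0.27 in G-Surgery, -0.23 ± 0.56 in G-Sham and -0.89 ± 0.54 in FLT-Surgery (SD), and neighbours in this order overlapped.

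Ppp3cc (A_51_P245405), the catalytic subunit known from testis and brain, was well above background only on the arrays of FLT-Sham mice 4, 6 and 9. There its log2 ratio was -0.67, -0.32 and -1.46, and on the fourth FLT-Sham array, not above background, it was -3.65. In the groups with no array above background the values, which carry only a bound, were -4.73 to -1.36 in G-Sham, -4.94 to -2.24 in G-Surgery and -4.68 to -3.72 in FLT-Surgery.

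Of the 2 inhibitors, Rcan2 had the widest range of all members. Rcan2 (A_55_P1961736) was -3.83, 2.28, 1.81 and 2.62 in G-Sham mice 1, 3, 4 and 5, and 3.64, 4.48, -0.67 and 3.39 in FLT-Sham mice 4, 6, 8 and 9. It was -2.36, 1.98, 0.40 and 0.88 in the 4 G-Surgery mice and 0.34, -3.34 and -2.23 in FLT-Surgery mice 1, 3 and 5. One mouse in each sham group and in G-Surgery was far below its group, at or near background, and these were the mice with the lowest muscle marker signal. Its means were 2.71 ± 2.30 in FLT-Sham, 0.72 ± 3.05 in G-Sham, 0.23 ± 1.85 in G-Surgery and -1.74 ± 1.89 in FLT-Surgery (SD), all overlapping. Rcan1 (A_52_P617327) was above background in FLT-Sham mice 4, 6 and 9, at -1.03, -0.18 and 0.69, and in G-Surgery mouse 1, at -1.82. Elsewhere it was not, with -4.06 to -1.60 in G-Sham, -3.49 in FLT-Sham mouse 8, -4.16 to -2.65 in the other G-Surgery mice and -3.76 to -3.13 in FLT-Surgery.

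Among the NFAT factors, the brighter Nfatc2 probe (A_55_P1967978) resembled the subunits. It was -3.11, -0.06, -0.34 and 1.49 in G-Sham mice 1, 3, 4 and 5, 2.12, 2.49, -0.63 and 1.51 in FLT-Sham mice 4, 6, 8 and 9, -0.96, 1.05, 0.22 and -0.39 in G-Surgery mice 1, 3, 4 and 5, and 0.62, -2.06 and -2.21 in FLT-Surgery mice 1, 3 and 5. The order was FLT-Sham, G-Surgery, G-Sham and FLT-Surgery, at means of 1.37 ± 1.40, -0.02 ± 0.86, -0.51 ± 1.91 and -1.21 ± 1.59 (SD), with all neighbours overlapping. A second Nfatc2 probe (A_52_P628171) was above background in Cy5 on 4 arrays and in the reference channel on 2, so its ratio is poorly set, and it was between -0.68 and 2.98. Nfatc3 (A_66_P117659) was above background in FLT-Sham mice 4 and 6 alone, at -1.10 and -1.19, beside -4.32 to -2.88 on the 13 arrays where it was not. The second Nfatc3 probe (A_52_P333419), below background throughout, had ratios from -2.94 to -0.35.

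Nfatc4 (A_52_P342159), an NFAT factor found in many tissues, was the exception. It was 0.73, 0.88, 0.66 and 0.54 in G-Sham mice 1, 3, 4 and 5, 0.93, 0.52, 0.79 and 0.29 in FLT-Sham mice 4, 6, 8 and 9, 2.03, 1.34, 0.95 and 1.29 in G-Surgery mice 1, 3, 4 and 5, and 0.93, 1.34 and 0.97 in FLT-Surgery mice 1, 3 and 5. All 4 G-Surgery values were above all 4 G-Sham values. Its means ran from 1.40 ± 0.45 in G-Surgery and 1.08 ± 0.23 in FLT-Surgery, which overlapped, to 0.70 ± 0.14 in G-Sham and 0.63 ± 0.29 in FLT-Sham (SD), which overlapped too. None of the arrays on which Rcan2 was lowest stood low in Nfatc4.

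The first question of the design is what spaceflight did in the intact femur. Between FLT-Sham and G-Sham, no member passed the cut-off, a 2-fold difference or more at a limma p no higher than 0.01 before adjustment, which 1.99% of the 19777 probes tested passed. Of the 11 member probes 9 could be tested, since the Nfatc3 probes were above background on too few arrays. Ppp3cc and Rcan1 entered through their FLT-Sham arrays alone, with 0 of 4 G-Sham arrays above background, so a count of directions over the 9 says nothing about the set. Among the 9, limma gave an unadjusted p under 0.05 for the second Nfatc2 probe alone, as for 9.62% of all probes, and no probe on the array reached an adjusted p of 0.05.

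By gene, the flight minus ground difference in shams was 0.79 for Ppp3r1 (SE 0.63, limma adjusted p = 0.566), 0.67 for Ppp3ca (SE 0.43, 0.539) and 1.14 for Ppp3cb (SE 0.85, 0.555). The 95% interval of Ppp3r1 ran from -0.64 to 2.21. Rcan2 differed by 1.99 (SE 1.61) and the brighter Nfatc2 probe by 1.88 (SE 1.02), with limma adjusted p of 0.567 and 0.520, and the second Nfatc2 probe by 1.48 (SE 0.50, limma adjusted p = 0.496). Nfatc4, at -0.07 (SE 0.29, limma adjusted p = 0.904), had the narrowest interval, from -0.73 to 0.59. All of these overlapped between the groups.

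For the genes below background on every G-Sham array the size of a difference is poorly set. In the Cy5 channel, after quantile normalization of the average intensity between arrays, the mean of Rcan1 was 2.66-fold higher in FLT-Sham than in G-Sham. Signals in the lower group were raised to the lowest signal above background on the array where they fell under it. Rcan1 was above background on 3 of 4 FLT-Sham arrays, with a limma adjusted p of 0.520. Ppp3cc was 1.97-fold higher, also on 3 of 4 arrays (limma adjusted p = 0.540), and Nfatc3 2.24-fold higher on 2 of 4, untested. These folds hold values not above background in both groups and are no lower bounds. No dyes were swapped, and an effect of the dye on these folds was not tested. Leaving out FLT-Sham mouse 8 raised the number of member probes past the cut-off from 0 to 2, while the count over all probes rose from 394 to 2089. Rcan1 was among the 2, and since it entered through FLT-Sham alone, nothing is drawn from its call. Leaving out G-Sham mouse 1 lowered the differences, to 0.24 for Ppp3r1, 0.34 for Ppp3cb, 0.47 for Rcan2 and 1.01 for Nfatc2, with 0 past the cut-off.

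The same question was then asked of the operated femur. Between FLT-Surgery and G-Surgery, 1 of 6 member probes tested passed the cut-off, Ppp3r1, beside 3.14% of the 16581 probes tested, and 2.09% passed in the lower direction. Ppp3r1 was 5.65-fold lower in flight, a log2 difference of -2.50 (SE 0.61, 95% interval -3.93 to -1.07, limma adjusted p = 0.270). Only 1 of the 3 FLT-Surgery arrays had the probe above background, so the size of this fold rests on values near the floor in mice 3 and 5. Its groups did not overlap, as held in this direction for 7.52% of all probes tested. By real-time PCR in the same comparison, the study reported a decrease of Ppp3r1 far smaller than that on its array. No probe on the array reached an adjusted p of 0.05, while 2713 (16.4%) had an unadjusted p under 0.05, Ppp3r1 and Ppp3cb among them.

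The other tested members had differences below 0 that did not pass. They were -1.89 for Ppp3cb (SE 0.69, limma adjusted p = 0.284), -1.97 for Rcan2 (SE 1.18, limma adjusted p = 0.408), -1.20 for Nfatc2 (SE 0.78, 0.442), -0.67 for Ppp3ca (SE 0.33, 0.339) and -0.32 for Nfatc4 (SE 0.32, 0.620). The interval of Ppp3cb ran from -3.50 to -0.27 and that of Ppp3ca from -1.45 to 0.10. These 6 are the probes measurable on at least 3 of the 7 arrays, and for Ppp3r1, Ppp3cb, Rcan2 and Nfatc2 the G-Surgery arrays carried them through that filter, so their count is no measure of the whole set. Ppp3cc and Nfatc3 were below background on every array of both groups. Rcan1 was above background on 1 of 4 G-Surgery and 0 of 3 FLT-Surgery arrays, and no fold is given for it.

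**Figure D2:**
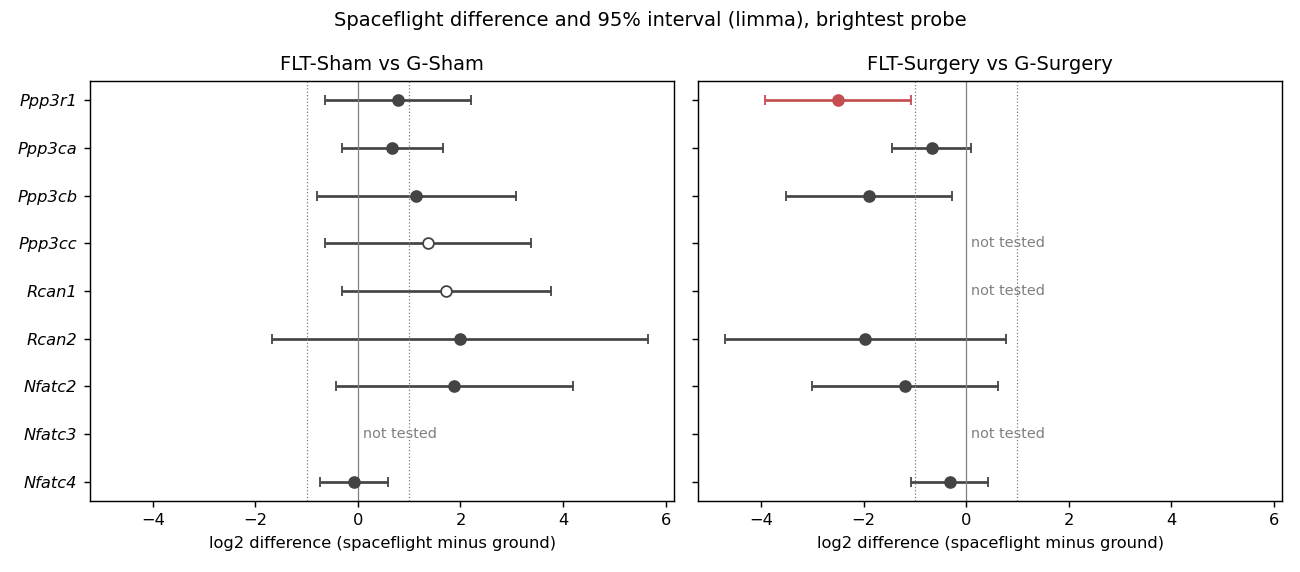
Spaceflight minus ground difference in log2 ratio (horizontal axis) with its 95% limma interval for the brightest probe of each gene, in unoperated mice on the left and operated mice on the right. Open points had a group with no array above background and dotted lines mark a fold of 2. Red marks the single difference past the cut-off, Ppp3r1 at -2.50 in operated mice.

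How firmly Ppp3r1 was called depended on the handling. With the slide as a block the difference was -2.62 (SE 0.42, limma adjusted p = 0.0739), and within slides it was -3.12 on slide 1, with 2 flight and 3 ground arrays, and -1.41 on slide 2, with 1 of each. A second loess gave -1.65 (SE 0.47, limma adjusted p = 0.129), still past the cut-off. That loess moved the median of all probes from -0.20 to 0.29, and relative to that median Ppp3r1 was at -2.30 and -1.94. After normexp background correction, which adds an offset of 50 to signals of this size, the difference was -0.33 (SE 0.13, limma adjusted p = 0.439) and the call was lost. With 1 array left out it was between -3.27, without FLT-Surgery mouse 1, and -1.97, without FLT-Surgery mouse 3. It lost the call without G-Surgery mouse 3, 4 or 5 or FLT-Surgery mouse 3 or 5, with a limma adjusted p between 0.211 and 0.548. Without FLT-Surgery mouse 1 the member probes past the cut-off rose from 1 to 3, with Ppp3cb at -2.68 and Nfatc2 at -2.11 added.

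**Figure D3:**
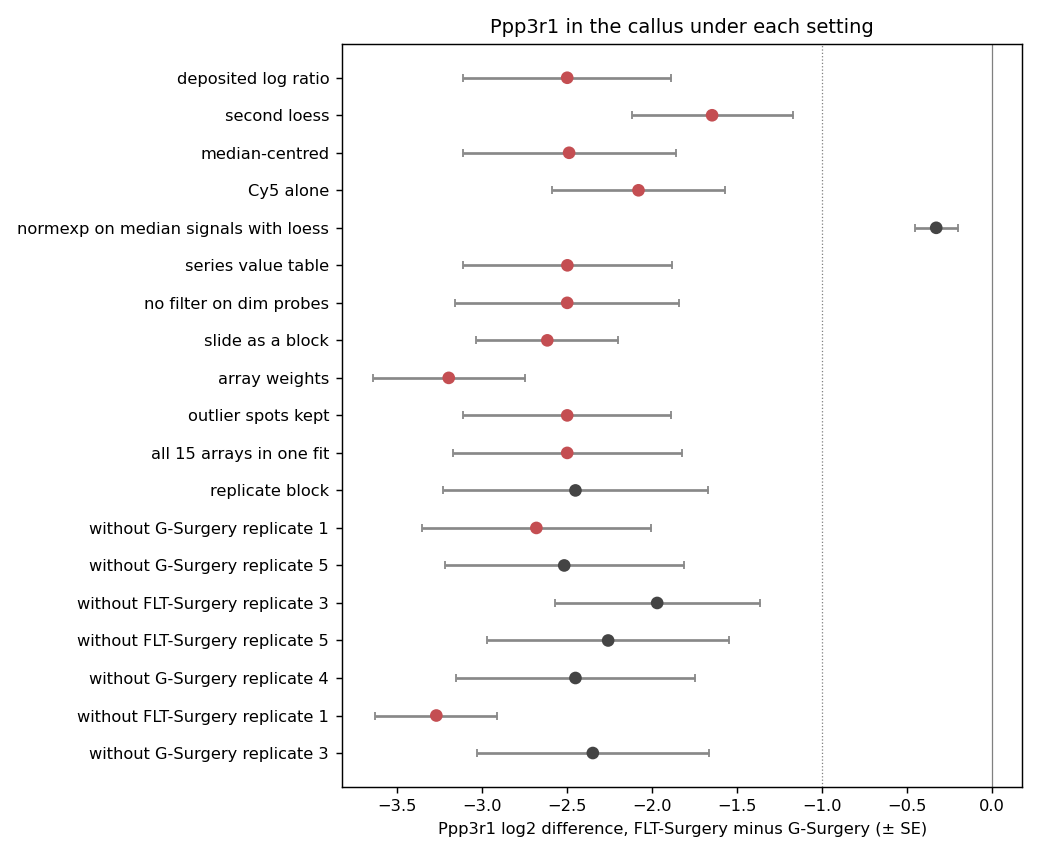
Log2 difference of Ppp3r1 between FLT-Surgery and G-Surgery (horizontal axis, with its SE) under each processing setting and with each array left out. Red points passed the cut-off of the fold and the unadjusted p. All points are negative, from -3.27 to -0.33, and the last of these is the normexp setting.

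The muscle marker signal is set beside these values here, and other lists shared its low arrays. The summed Cy5 signal of the neutrophil markers was lowest in the same mouse of each group as that of muscle. That of the fat cell markers was lowest in G-Sham mouse 1, FLT-Sham mouse 8, G-Surgery mouse 1 and FLT-Surgery mouse 5. Osteoblast and osteocyte markers were lowest in mouse 5 of both ground groups. In FLT-Surgery the muscle marker signal was 19.4% of the highest array in mouse 1, where Ppp3r1 stood at -0.82, and 1.98% and 2.52% in mice 3 and 5, where Ppp3r1 stood at -3.42 and -2.84. In G-Surgery it was 5.43%, 24.6%, 15.2% and 24.98% in mice 1, 3, 4 and 5, and G-Surgery mouse 1 had the lowest Ppp3r1, Ppp3cb and Rcan2 of its group. In the shams it was 7.07%, 20.3%, 34.2% and 32.6% in G-Sham mice 1, 3, 4 and 5, and 91.2%, 10.9% and 55.7% in FLT-Sham mice 4, 8 and 9, with mouse 6 the highest of all. There Ppp3r1, Ppp3cb and Rcan2 were again lowest in the mouse of each group with the least. Across the operated groups this order was not kept. Ppp3r1 was -0.41 in G-Surgery mouse 1, at 5.43%, and -0.82 in FLT-Surgery mouse 1, at 19.4%. Of the 14 muscle markers 13 were tested between the operated groups, 13 were negative with a median of -1.70, and 0 passed the cut-off. After a second loess 11 of these were negative. In the sham comparison all 14 were tested, 10 were positive with a median of 0.57 and 0 passed, and after a second loess 7 were positive. Some other lists moved as far or further. Of the neutrophil markers tested, 5 of 6 were negative between the operated groups with a median of -1.79, and 6 of 8 positive between the shams at 1.84. Between the shams the medians of erythroid and fat cell markers were 1.62 and 3.05. T cell markers went the other way, with medians of 0.11 between the operated groups and -0.46 between the shams. The part of RNA from muscle or from these other cells in the differences was not tested. Of the markers of other cells, 1 of 7 osteoblast and osteocyte and 2 of 4 fat cell genes tested passed as higher in FLT-Sham than in G-Sham, and 1 of 3 cartilage genes passed as lower in FLT-Surgery than in G-Surgery, while 0 of the osteoclast, erythroid, neutrophil, B cell, T cell and endothelial markers passed in either comparison.

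**Figure D4:**
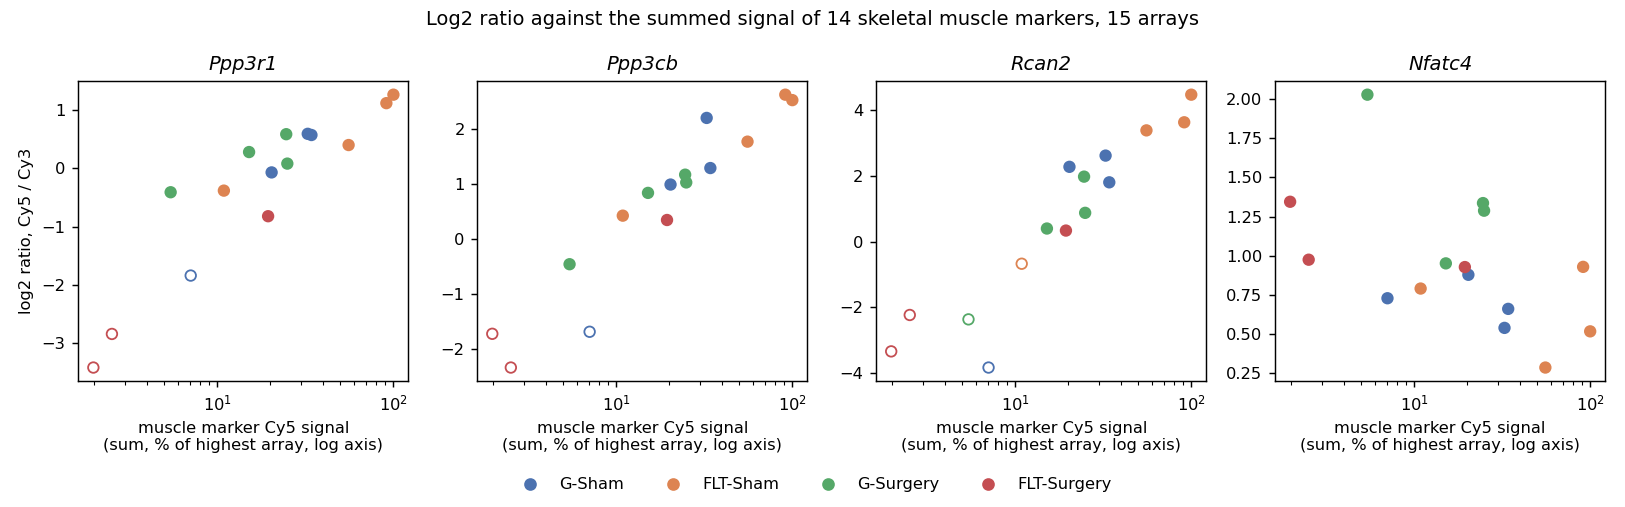
Log2 ratio (vertical axis) of Ppp3r1, Ppp3cb, Rcan2 and Nfatc4 against the summed Cy5 signal of 14 skeletal muscle markers in percent of the highest array (horizontal log axis) on the 15 arrays, coloured by group. Open points were not well above background. The 3 lowest values of Ppp3r1, Ppp3cb and Rcan2 are all on arrays with at most 7.07% of the highest muscle signal, while Nfatc4 on those arrays is between 0.73 and 2.03.

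Whether spaceflight acted differently in operated and unoperated mice was tested as an interaction over all 15 arrays. Ppp3r1 was the 1 member probe of 9 tested that passed, beside 5.33% of the 21816 probes, with a difference of differences of -3.29 (SE 0.93, 95% interval -5.29 to -1.28, limma adjusted p = 0.171). Ppp3cb was at -3.02 (SE 1.20), Ppp3ca at -1.34 (SE 0.56) and Nfatc2 at -3.07 (SE 1.41), with limma adjusted p of 0.211, 0.226 and 0.251, and these did not pass, nor did any of the other 5. At an unadjusted p under 0.05 were these 4 member probes and 19.5% of all probes. The Ppp3r1 term was -3.54 with the slide as a block and -0.50 after normexp (limma adjusted p = 0.344), and without FLT-Surgery mouse 3 it was -2.76 and without mouse 5 it was -3.05, neither of which passed.

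Surgery itself was compared on the ground and in flight. These comparisons use the same arrays as those above and are not independent of them. Between G-Surgery and G-Sham, 0 of 6 member probes tested passed, where 2.61% of 17715 did, and 1 of the 6 had an unadjusted limma p under 0.05, as 10.9% did. This was Nfatc4, higher by 0.70 after surgery (SE 0.28, limma adjusted p = 0.427), with groups that did not overlap as for 5.32% of probes in that direction. Ppp3r1, Ppp3ca and Ppp3cb differed by 0.32 (SE 0.55), 0.01 (SE 0.33) and -0.05 (SE 0.79), and the signs of Ppp3r1, Ppp3ca and of Nfatc2, at 0.49 (SE 0.90), turned under another scaling.

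In flight, 2 members passed as lower in operated mice. Between FLT-Surgery and FLT-Sham, 2 of 9 member probes tested passed, beside 6.64% of 19165 probes, of which 6.21% were lower. Ppp3r1 differed by -2.97 (SE 0.71, limma adjusted p = 0.137) and Ppp3cb by -3.08 (SE 0.79, limma adjusted p = 0.142), 7.81-fold and 8.45-fold. Both probes were above background on 1 of 3 FLT-Surgery arrays, so these folds too rest on values near the floor. Neither overlapped between the groups, as for 10.6% of all probes in that direction. Rcan2 differed by -4.45 (SE 1.35, limma adjusted p = 0.152), Nfatc2 by -2.59 (SE 0.96, 0.175) and Ppp3ca by -1.34 (SE 0.47, 0.169), without passing, and Nfatc4 by 0.45 (SE 0.35). An unadjusted p under 0.05 was found for 7 of the 9 and for 24.3% of all probes, but Ppp3cc and Rcan1, which are among the 7, entered the test through FLT-Sham alone, and the counts are not comparable. By the Cy5 measure used for the shams, Ppp3cc was 4.27-fold lower in FLT-Surgery (limma adjusted p = 0.150), Rcan1 4.22-fold (0.173) and Nfatc3 1.96-fold, untested. These folds again hold FLT-Sham values not above background and are no lower bounds.

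With the slide as a block both calls were lost, at -2.67 for Ppp3r1 and -2.84 for Ppp3cb (limma adjusted p = 0.335 for both). After normexp Ppp3r1 was at -0.71 and lost its call, while Ppp3cb was at -1.34 and kept it. Within slides, Ppp3r1 differed by -4.26 on slide 1, with 2 operated and 1 sham array, and by -1.25 on slide 2, with 1 and 3, and Ppp3cb by -4.66 and -1.23. Without FLT-Surgery mouse 3 or mouse 5 neither gene passed, without FLT-Sham mouse 4, 6 or 9 Ppp3r1 alone did, and without FLT-Sham mouse 8 the member probes past the cut-off rose to 7. Between the same groups 5 of 14 muscle, 4 of 8 neutrophil, 3 of 4 erythroid and 3 of 4 fat cell markers tested passed in the lower direction, as did 1 of 6 osteoblast and osteocyte markers, and their part in the difference was not tested.

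Across the 15 arrays several members varied together. Pearson's r between the log2 ratios was 0.94 for Ppp3r1 with Ppp3cb, 0.96 for Ppp3ca with Ppp3cb, 0.94 for Rcan2 with Ppp3cb and 0.93 for Rcan2 with Nfatc2. Rcan1, Ppp3cc and the brighter Nfatc3 probe followed Ppp3r1 less closely, with an r of 0.57, 0.59 and 0.40, and these were mostly below background. Nfatc4 had a negative r with every other member probe, from -0.57 with Ppp3cc to -0.29 with Ppp3r1. These are descriptions over 15 arrays in 4 groups, and the probes of an array share its RNA, its dye factor and its scan. The paired probes of Nfatc2 had an r of 0.71 and those of Nfatc3 0.94.

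Ranked by the same measure over 8070 genes, those most like Ppp3r1 were Rab12 (r = 0.98), a small GTPase of membrane traffic, Emc7 (0.98), of the endoplasmic reticulum membrane complex, Polr1a (0.97), the large subunit of RNA polymerase I, Mospd1 (0.97) and Cav3 (0.97), the caveolin of muscle cells.

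Around the members, 37 other genes of the pathway were described at 1 probe each. Between the sham groups 30 were tested, and 1 rose in flight and 0 fell, beside 1.99% of all probes past the cut-off. It was Dyrk1a, a kinase that phosphorylates NFAT factors, which was 0.34 to 1.01 in FLT-Sham and -2.45 to -0.46 in G-Sham. The difference was 1.77 (SE 0.48, limma adjusted p = 0.449). After a second loess it was 1.07 and after normexp 0.21, and it passed in neither. Of the 30, 21 were positive with a median of 0.58, or 18 after a second loess, against 61.1% positive and a median of 0.25 over all probes tested.

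Between the operated groups 25 of the 37 were tested, and 2 fell and 1 rose, beside 3.14% of all probes past the cut-off. Stim1, the calcium sensor of the endoplasmic reticulum that opens store-operated channels, was -1.70 to 0.81 in FLT-Surgery and 0.93 to 2.28 in G-Surgery, a difference of -2.12 (SE 0.60, limma adjusted p = 0.280). Myoz2, a calcineurin-binding protein of the muscle Z disc, was above background on 4 of 4 G-Surgery and 0 of 3 FLT-Surgery arrays. It entered the test through G-Surgery alone, so the count that fell is not comparable with the share over all probes. Myoz2 was at least 8.82-fold lower in flight (limma adjusted p = 0.209). By real-time PCR the study reported a far smaller decrease for it than on its array. Mef2a, a transcription factor that responds to calcineurin signalling in muscle, went the other way, at 4.08 to 4.56 in FLT-Surgery against 3.01 to 3.41 in G-Surgery, a difference of 1.19 (SE 0.27, limma adjusted p = 0.253). All 3 kept their sign under each of 4 other scalings, but Stim1 did not pass after a second loess, at -1.42, or after centring on the median, at -2.11, and none of the 3 passed after normexp, at -0.92, -0.82 and 0.81. The 3 calmodulin genes lay between -0.29 and 0.26 and did not pass, and 19 of the 25 genes were negative with a median of -0.29, or 13 of 25 after a second loess, against 62.2% negative and a median of -0.20 over all probes tested.

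After surgery on the ground 26 of the 37 were tested and 0 passed, and between FLT-Surgery and FLT-Sham 30 were tested, 6 fell and 0 rose. Those 6 were Stim1, Akap1, Myoz1, Myoz2, Dyrk1a and Crtc3, with differences from -5.32 for Myoz1 to -2.66 for Stim1, where 6.21% of all probes tested passed as lower. After normexp Stim1 alone of the 6 passed, and Crtc3 was at 0.067, while after a second loess Stim1 was the one that did not pass, at -1.83. Akap1, Myoz2 and Crtc3 were below background on all 3 FLT-Surgery arrays and entered the test through FLT-Sham alone. The count of 6 is therefore not comparable with the share over all probes. By the Cy5 measure they were 5.73-fold, 15.6-fold and 4.14-fold lower. Each was above background on 3 of 4 FLT-Sham arrays, so these folds are no lower bounds. Myoz1 and Myoz2 are proteins of striated muscle, and the part of muscle RNA in their differences was not tested.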

How the data were processed

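RNA of 15 mouse femora was measured on 2-colour Agilent 8x60K arrays. The authors deposited the output of Agilent Feature Extraction (12.0 per the labels, 12.0.3.1 in the file headers), which gives for each spot the intensity of both channels and the log10 ratio of Cy5 over Cy3 after background subtraction, a linear dye factor and LOWESS. The deposited series table holds the same log10 values to within 0.005. No value column was left unassigned.

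The deposited log10 ratio was converted to log2 and used as it stands, because a second loess would act on signals already normalized for intensity. Spots flagged as outliers were set to missing. Probes were named through their accession with RefSeq tables, which gave 28026 of 55681 probes a symbol and left 27655 without one. The test was limma 3.58.1 (R 4.3.3), fitted to the arrays of each pair of groups, or to all 15 for the interaction. A probe entered where 3 or more of those arrays had it well above background in Cy5. A call needs the study's cut-off, a 2-fold change or more with p no higher than 0.01 before adjustment. Adjusted p-values are Benjamini-Hochberg over all probes tested.

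The members and gene lists were chosen with earlier results of these data known. Values are printed per array for the brightest probe of each gene, tests for it in both spaceflight comparisons and elsewhere mainly for probes past the cut-off, and the 5 genes closest to Ppp3r1 by Pearson's r are named. Marker lists were for skeletal muscle, osteoblasts and osteocytes, osteoclasts, chondrocytes, erythroid cells, neutrophils, B cells, T cells, endothelial cells and adipocytes. Alternatives were other scalings, filters, thresholds, slide and replicate blocks, array weights and arrays left out. Normexp was run on median signals, a choice made after seeing the data, since mean signals were not used here. The number of arrays limits the precision. Figures were drawn in Python 3.11.15 with matplotlib 3.10.9. The fits were tested on simulated data.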

Additional observations from a re-analysis of the deposited data

Results flagged for a closer look

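Rcan2 in G-Sham mouse 1 had a log2 ratio of -3.83, far from the other 3 mice of its group at 1.81 to 2.62. The gap to the nearest of them was 0.874 of the group's range, above Dixon's limit for 4 samples. Of the 33 sets of 4 arrays looked at, chance alone flags about 1 in 20, or 1.65 sets. The same mouse had 7.07% of the highest muscle marker signal, the lowest share in G-Sham.

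The effect of spaceflight on Ppp3r1 differed between operated and unoperated mice by -3.29 on the log2 scale (limma interaction, adjusted p = 0.171), a difference that 5.33% of all probes tested passed at the same cut-off in either direction.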

How the results depend on the processing

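Counts of member probes past the cut-off changed with the setting. For FLT-Sham against G-Sham the count of 0 became 4 with array weights. For FLT-Surgery against G-Surgery the count of 1 became 0 with a filter on both channels on every array, with an adjusted p of at most 0.05 and after normexp, and 2 with array weights or the slide as a block. For FLT-Surgery against FLT-Sham the count of 2 became 0 with the both-channel filter, the adjusted p or the slide as a block, 1 with no filter or after normexp, 4 with all 15 arrays in one fit and 8 with array weights. The interaction count of 1 became 0 with the both-channel filter, the adjusted p or normexp, and 6 with array weights. With 1 array left out the counts ran from 0 to 2, from 0 to 3, from 0 to 7 and from 0 to 3 in these 4 contrasts, and stayed at 0 for G-Surgery against G-Sham. In the spaceflight comparisons the sign that turned was that of Nfatc4, 0.17 after a second loess between the operated groups, and between -0.17 and 0.044 with 1 array left out between the shams. The cause of these changes was not tested.

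Counts over all probes also moved. For FLT-Sham against G-Sham 394 became 248 after a second loess, 33 after normexp, 683 with no filter, 55 with the both-channel filter, 227 with the slide as a block, 4730 with array weights and 604 with all 15 arrays. For FLT-Surgery against G-Surgery 520 became 1192 after a second loess, 208 after normexp, 1297 with the slide as a block and 2038 with array weights. For FLT-Surgery against FLT-Sham 1272 became 293 after normexp, 586 with the both-channel filter, 550 with the slide as a block, 9312 with array weights and 2596 with all 15 arrays. For G-Surgery against G-Sham 463 became 178 after normexp, 254 with the both-channel filter, 211 with the slide as a block and 699 with array weights, and for the interaction 1162 became 321 after normexp, 569 with the both-channel filter and 6407 with array weights. With 1 array left out these counts ran from 94 to 2089, 246 to 2055, 297 to 4931, 243 to 755 and 543 to 3790, and at an adjusted p of at most 0.05 they were 0, 0, 16, 2 and 0. The share of calls that were higher was 89.6% between the shams, or 65.3% after a second loess, 30.3% after normexp and 74.0% in Cy5 alone, and 33.3% between the operated groups, or 94.7%, 82.7% and 50.4%. For FLT-Surgery against FLT-Sham it was 6.37%, or 51.8%, 33.1% and 19.8%, for G-Surgery against G-Sham 80.1%, or 56.8%, 40.4% and 65.2%, and for the interaction 6.71%, or 73.9%, 53.9% and 23.0%.

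The replicate numbers were not taken to pair the mice. Same-numbered FLT-Surgery and G-Surgery arrays had correlations of deviations from -0.38 to 0.23, and G-Surgery and G-Sham arrays from -0.16 to 0.38. With the replicate block, Ppp3r1 in FLT-Surgery against G-Surgery was -2.45 (limma adjusted p = 0.545), member probes past the cut-off went from 1 to 0 and all probes from 520 to 215. For G-Surgery against G-Sham the block gave 0 member probes and 391 probes in all, beside 463. No paired analysis was possible for FLT-Sham against G-Sham or FLT-Surgery against FLT-Sham, which share fewer than 2 numbers. The interaction was not run with the replicate block.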
